A study of Mus musculus with 8 samples.

Results

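The genes described here encode matricellular proteins and the ligands of transforming growth factor beta (TGF-beta) as measured in left ventricles of mice on a low salt diet and on a normal salt diet. The 10 genes are Ccn2 (listed in the array design as Ctgf), Ccn1 (listed as Cyr61), Postn, Thbs1, Sparc, Fn1, Tnc, Tgfb1, Tgfb2 and Tgfb3. They were chosen by name, and every non-control probe that carries one of these names was taken, which gave 13 of 39429 probes and 10 of 30139 genes. Of these, 11 probes of 9 genes passed the filter on dim probes, and Tnc did not.

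The animals were male mice of the inbred strain C57Bl/6j, aged 16 weeks, and the labels give no engineered allele. The low salt diet held 0.05% sodium and the normal salt diet 0.4% sodium, each given for 8 weeks to 4 mice. All mice were anaesthetised with pentobarbital sodium and bled before the left ventricle (its septum, its free wall and its apex) was taken and homogenised. RNA was labelled with Cy3 for mice 1 and 3 and with Cy5 for mice 2 and 4 of each diet, and 2 mice of the same diet shared each of 4 Agilent arrays on 1 slide. Both arrays of a diet lay next to each other, so that diet and place on the slide cannot be told apart.

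Matricellular proteins are secreted into the extracellular matrix, where they act on cell surface receptors and growth factors more than as scaffold. TGF-beta ligands are secreted in a latent form, are released by integrins and by thrombospondin, and signal through receptor kinases and Smad transcription factors to genes of the matrix, CCN2 and periostin among them. In the heart the matrix genes are made largely by fibroblasts, while CCN1 and CCN2 are early response genes of several cell types and are targets of the YAP and TAZ coactivators, which bind DNA through TEAD factors.

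The promoter of Ccn1 is shown because Ccn1 was the single gene of the 10 with no overlap between the diets, and because a TEAD motif lies in it. The 250 bases before its start lie on the minus strand at chr3:145649986-145650235 of GRCm38.p6 in RefSeq, and the motif CATTCC stands in capitals.
Ccn1 promoter: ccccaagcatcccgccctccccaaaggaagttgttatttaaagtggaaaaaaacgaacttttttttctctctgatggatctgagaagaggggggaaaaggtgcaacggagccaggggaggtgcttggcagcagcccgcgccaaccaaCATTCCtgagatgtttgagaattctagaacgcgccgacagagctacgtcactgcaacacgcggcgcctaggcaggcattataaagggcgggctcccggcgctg
The motif begins 103 bases before the start, and 12.6% of 32851 RefSeq promoters hold CATTCC on either strand in a window of this length. The Smad motif CAGACA (in 17.1% of promoters), the AP-1 motif TGANTCA (in 6.75%) and the CArG box of SRF (in 1.47%) have no match in this window on either strand. RefSeq promoters were matched for 6 of the 10 genes (Ccn1, Postn, Sparc, Tnc, Tgfb1 and Tgfb2), and CATTCC was found in the window of Ccn1 alone among them. CAGACA was found in those of Tgfb2 and Sparc and at one of the starts of Tnc. A match of letters describes the sequence and does not show binding.

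The probes of Tgfb1 and of Tgfb2 are shown because they cover a stretch that the ligands share, so that the reading of each ligand can be set against the letters it rests on. The Tgfb1 probe lies on the plus strand at chr7:26489877-26489936 and the brighter Tgfb2 probe on the minus strand at chr1:188449333-188449392, both in the mm9 coordinates of the array design. Capitals mark the bases that are identical when the 41 bases that overlap are set side by side.
Tgfb1 probe: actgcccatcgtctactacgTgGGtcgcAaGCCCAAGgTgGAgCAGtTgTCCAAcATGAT
Tgfb2 probe: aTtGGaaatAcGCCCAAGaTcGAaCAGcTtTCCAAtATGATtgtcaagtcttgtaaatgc
Of the 41 aligned bases 28 (68.3%) were identical. Whether one transcript bound to the probe of the other was not tested.

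The probes of Tnc are shown because neither was well above background in any mouse, so that the letters are what was searched for. They lie on the minus strand of chromosome 4 in mm9 coordinates, the first at chr4:63643728-63643787 and the second within chr4:63674248-63675011, a span longer than the probe.
Tnc first probe: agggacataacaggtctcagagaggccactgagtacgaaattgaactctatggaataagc
Tnc second probe: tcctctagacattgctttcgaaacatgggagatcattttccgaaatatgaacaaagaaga
The array design does not give the exon or intron of a probe.

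Each value below is a normalised log2 intensity, so that 1 unit is a doubling of the background-corrected intensity plus an offset of 50. For dim probes the offset makes a log2 difference smaller. Brightness depends on the probe, and levels are compared between diets within a gene and not between genes. A difference is a log2 value, taken as low salt minus normal salt. Every p is from limma, a linear model fitted across all 18093 genes tested, 2-sided, and an adjusted p is by Benjamini-Hochberg over all of them. The samples were similar in quality within a dye, and the median spot signal was 116 to 147 over both dyes. The median background was 15.5 to 17 in the Cy3 mice and 33 to 33.5 in the Cy5 mice. Of 43020 spots, 53.0% to 55.8% were well above background in the Cy3 mice and 62.4% to 66.3% in the Cy5 mice. The correlation over genes was 0.994 to 0.996 between the mice of an array, 0.983 to 0.990 between arrays of a diet and 0.980 to 0.990 between diets. Of the ventricular cardiomyocyte markers, 8 of 8 were tested, and their mean level was 16.07 to 16.53 on low salt and 15.99 to 16.58 on normal salt. In whole tissue, fewer cells of a type and less RNA per cell cannot be told apart.

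None of the 9 genes tested passed an adjusted p of 0.05 in limma, against 157 of all 18093 genes (0.868%), of which 150 were higher (0.829%) and 7 lower (0.0387%) on low salt. At an unadjusted p under 0.05 there were 2 of the 9, Ccn2 and Ccn1, against 11.3% of all genes. The mice of the diets did not overlap in 1 of the 9, Ccn1, against 12.8% of all genes. The 4 low salt values stood above the 4 normal salt values in 8.03% of genes, Ccn1 included, and below them in 4.78%, with none of the 9. The median difference of the 9 was 0.11, with 6 higher and 3 lower, against 0.01 over all genes.

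**Figure D1:**
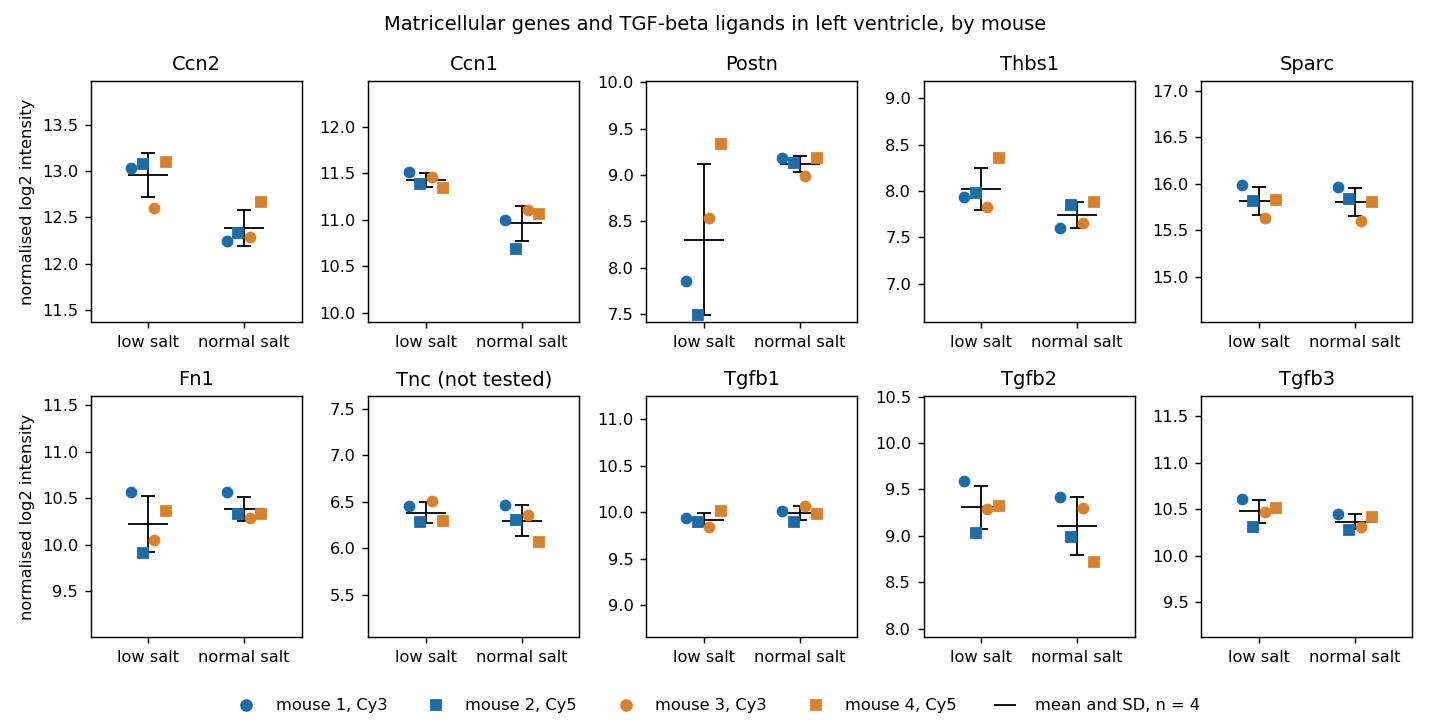
Normalised log2 intensity (vertical axes, each spanning the same number of log2 units) of the 10 genes in each of 4 low salt mice (left in each panel) and 4 normal salt mice (right). Symbols give the mouse and its dye, colours give the array within a diet, and bars are the mean and SD. Ccn2 and Ccn1 sit higher on low salt, and Postn is spread widely on low salt alone (SD 0.81 against 0.09). The diets overlap in every gene but Ccn1.

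Ccn2 and Ccn1, the connective tissue growth factor and the cysteine-rich angiogenic inducer of the CCN family, were the pair with the smallest p among the 9. Ccn2, which promotes matrix production together with TGF-beta, had 13.03, 13.08, 12.60 and 13.10 on low salt, against 12.25, 12.33, 12.29 and 12.67 on normal salt. Low salt mouse 3 lay below normal salt mouse 4, and the other low salt mice lay above all normal salt mice. Its mean was 12.95 ± 0.24 on low salt and 12.38 ± 0.19 on normal salt (SD, n = 4 each), a difference of 0.57 ± 0.16 (SE), or 1.48-fold, with a 95% interval of 0.19 to 0.94. The unadjusted p in limma was 0.0079 and the adjusted p was 0.237. The probe of Ccn2 lies at chr10:24318281-24318340 on the plus strand of mm9.

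Ccn1, which binds integrins and is induced by serum and by stretch, had 11.51, 11.39, 11.46 and 11.34 on low salt, against 11, 10.69, 11.11 and 11.06 on normal salt. Every low salt mouse was above every normal salt mouse. The means were 11.42 ± 0.07 on low salt and 10.97 ± 0.19 on normal salt (SD, n = 4 each). The difference was 0.46 ± 0.12 (SE), or 1.37-fold, with a 95% interval of 0.19 to 0.73, an unadjusted p of 0.0045 and an adjusted p of 0.176 in limma. Its probe lies at chr3:145310187-145310246 on the minus strand of mm9, and the promoter with the TEAD motif belongs to this gene.

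Ccn2 and Ccn1 stood higher in both dyes. The difference of Ccn2 was 0.54 in the Cy3 mice and 0.59 in the Cy5 mice, and that of Ccn1 was 0.43 and 0.49. With the array correlation left out of the model (estimated at 0.554 otherwise), which counts the mice of 1 array as independent, the adjusted p in limma was 0.04 for Ccn2 and 0.0374 for Ccn1. Over the 8 mice, centred within dye, the levels of the pair correlated at r = 0.95, a description over mice that share arrays. The values were not centred within diet, so the difference of both genes between diets enters this r.

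Postn encodes periostin, a matrix protein of fibroblasts that is known to increase in the injured heart. It had 7.86, 7.49, 8.54 and 9.33 on low salt, against 9.18, 9.13, 8.99 and 9.18 on normal salt. Low salt mice 1, 2 and 3 were below every normal salt mouse, and low salt mouse 4 was above every one. The means were 8.31 ± 0.81 on low salt and 9.12 ± 0.09 on normal salt (SD, n = 4 each), a difference of -0.81 ± 0.42 (SE), with a 95% interval of -1.78 to 0.16. The unadjusted p was 0.09 and the adjusted p was 0.5 in limma.

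Postn was the one gene of the 9 at least 1.5-fold lower in both dyes (-0.88 in the Cy3 mice, -0.75 in the Cy5 mice), against 1.31% of all genes. None of the 9 was at least 1.5-fold higher in both, against 1.98% of all genes. The mean of mice 1 and 2, which shared an array, minus that of mice 3 and 4 was -1.26 on low salt and 0.07 on normal salt. With the array of its mice 3 and 4 left out of the low salt group, the difference of Postn was -1.44 and passed (adjusted p = 0.0151 in limma). With that of mice 1 and 2 left out instead, it was -0.18 (adjusted p = 0.819). Without low salt mouse 4 it was -1.09 (adjusted p = 0.216).

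The gap of 1 log2 unit or more between the low salt arrays, with mice 1 and 2 the lower, was found in 182 of all genes (1.01%), and its counterpart on normal salt in 242 (1.34%). Among the genes listed here it was also met by Tgfbr2 at -2.02, Rgs5 at -1.3, Bgn at -1.1 and Tek at -1.04, named after their values were seen. These are a receptor of TGF-beta, a pericyte gene, a matrix proteoglycan and an endothelial receptor. The probe of Postn lies at chr3:54194840-54194899 on the plus strand of mm9.

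Thbs1, thrombospondin 1, which activates latent TGF-beta, had 7.93, 7.98, 7.83 and 8.35 on low salt, against 7.60, 7.85, 7.65 and 7.88 on normal salt. The low salt mice 1, 2 and 4 were above all normal salt mice and mouse 3 was among them. The difference was 0.27 ± 0.14 (SE), with a 95% interval of -0.05 to 0.59 (adjusted p = 0.492 in limma). The probe lies at chr2:117952585-117952644 on the plus strand of mm9.

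Sparc, osteonectin, a collagen-binding protein that takes part in fibril assembly, had 15.99, 15.81, 15.63 and 15.82 on low salt, against 15.96, 15.84, 15.60 and 15.80 on normal salt. The diets overlapped throughout. The difference was 0.01 ± 0.15 (SE), with a 95% interval of -0.35 to 0.36 (adjusted p = 0.987 in limma), at chr11:55208939-55208998 on the minus strand of mm9. A second, dimmer probe at chr11:55208003-55208061 gave -0.06 ± 0.15 (SE).

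Fn1, fibronectin, on which fibroblasts assemble other matrix proteins, had 10.57, 9.91, 10.05 and 10.36 on low salt, against 10.57, 10.33, 10.29 and 10.33 on normal salt. Low salt mice 2 and 3 were below all normal salt mice, and low salt mice 1 and 4 were not. The difference was -0.16 ± 0.25 (SE), with a 95% interval of -0.72 to 0.41 (adjusted p = 0.828 in limma), at chr1:71632116-71632175 on the minus strand of mm9.

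Tnc, tenascin C, a matricellular protein that is scarce in the healthy adult heart, was not well above background on either probe in any of the 8 mice. The first probe read 6.45, 6.28, 6.51 and 6.29 on low salt, against 6.46, 6.30, 6.36 and 6.07 on normal salt, and the diets overlapped. The second read 6.49, 6.21, 6.35 and 6.23 on low salt, against 6.27, 6.20, 6.23 and 5.90 on normal salt. No fold is given where both diets are at background.

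**Figure D2:**
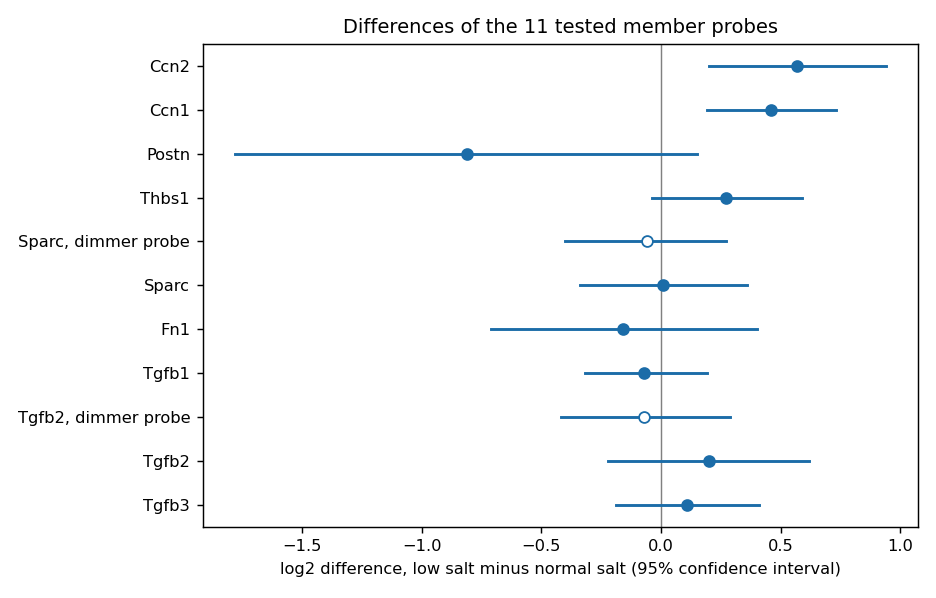
Log2 difference, low salt minus normal salt (horizontal axis), of the 11 probes tested, with 95% confidence intervals as bars; filled points are the brightest probe of a gene and open points a dimmer one. The intervals of Ccn2 and Ccn1 lie above 0 before any adjustment, and all others include 0.

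The 3 ligands did not pass, and the intervals bound how far apart the diets could be. Tgfb1, the ligand that drives fibroblast activation, had 9.94, 9.89, 9.84 and 10.01 on low salt, against 10.01, 9.89, 10.07 and 9.98 on normal salt. The diets overlapped, and the SD among mice was 0.07 on low salt and 0.08 on normal salt. The difference was -0.07 ± 0.11 (SE), with a 95% interval of -0.33 to 0.19 (adjusted p = 0.832 in limma).

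Tgfb2, a ligand that forms heart cushions in the embryo, had 9.59, 9.03, 9.29 and 9.32 on low salt, against 9.42, 8.99, 9.30 and 8.72 on normal salt on its brighter probe. The diets overlapped, and normal salt mouse 4 was the lowest. The difference was 0.20 ± 0.18 (SE), with a 95% interval of -0.22 to 0.62 (adjusted p = 0.692 in limma). The dimmer probe, at chr1:188447534-188447593 on the minus strand of mm9, gave -0.07 ± 0.16 (SE), with the opposite sign, and neither passed.

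Tgfb3, a ligand best known from palate fusion, had 10.61, 10.31, 10.47 and 10.51 on low salt, against 10.45, 10.28, 10.31 and 10.42 on normal salt. The diets overlapped, with low salt mouse 1 the highest of all. The difference was 0.11 ± 0.13 (SE), with a 95% interval of -0.19 to 0.42 (adjusted p = 0.771 in limma), at chr12:87397804-87397863 on the minus strand of mm9.

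The probes of Tgfb1 and Tgfb3 were each printed 10 times on the array, which shows how a reading varies with the spot's place. The SD over the spots of Tgfb1 in a sample was 0.19 to 0.31 (median 0.21), which includes differences by row that the mice share. The difference by spot was -0.28 to 0.09, with 9 spots lower on low salt and 1 higher. For Tgfb3 the SD over spots was 0.12 to 0.21 (median 0.15) and the difference by spot was -0.01 to 0.26, with 9 higher and 1 lower. The spots read the same RNA on the same arrays, so these counts are not repeats of the comparison. Over the spots, the difference correlated with the median difference of the neighbouring spots (r = 0.74 for Tgfb1 and 0.85 for Tgfb3). The other genes had 1 spot a probe.

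**Figure D3:**
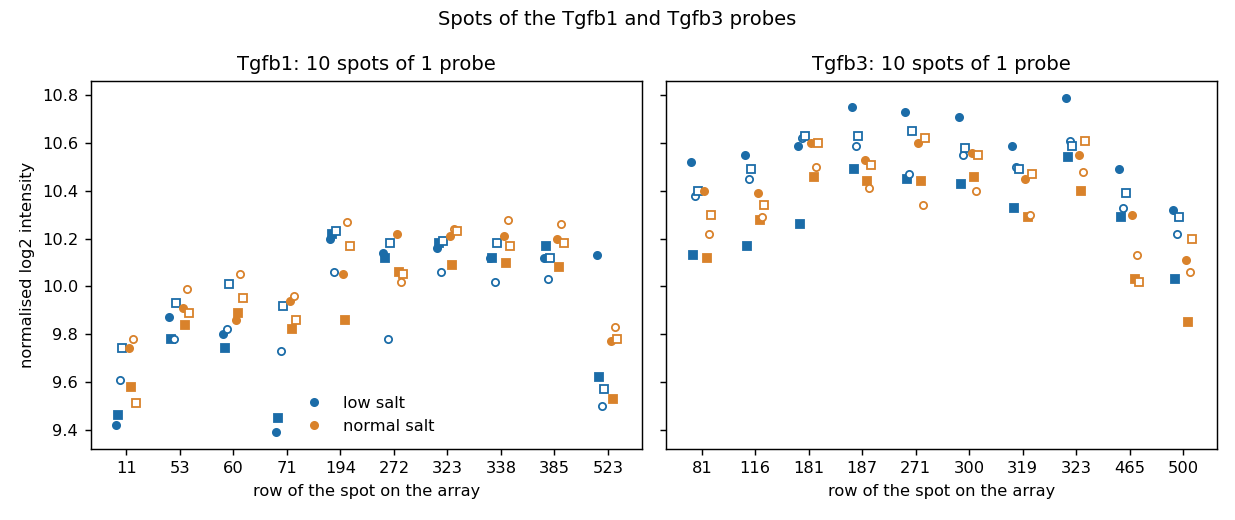
Normalised log2 intensity (vertical axis) of each of the 10 spots of the Tgfb1 probe (left) and of the Tgfb3 probe (right), by the row of the spot on the array (horizontal axis). Low salt (blue) stands left of normal salt (orange) at each spot; circles are Cy3 and squares Cy5 mice, filled for mice 1 and 2 and open for mice 3 and 4. The Tgfb1 spots at rows 11 and 523 read low in most mice of both diets.

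The position on the array was checked for every gene through the median difference of its neighbours. This local difference was between -0.08 and 0.02 around the 11 probes tested. With it subtracted, the difference of Ccn2 was 0.54, of Ccn1 0.50 and of Postn -0.74.

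Other matricellular genes gave no call. Of 25 on the list 20 were tested, 5 were higher and 15 lower, and their median difference was -0.06, against 0.01 over all genes. Fbln5, an elastin-binding fibulin, was at 1.12 (adjusted p = 0.116 in limma), or 0.94 with a local difference of 0.17 subtracted. Its 4 low salt values were above its 4 normal salt values. Tnxb, tenascin X, was at -0.63 (adjusted p = 0.451).

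The receptors of matricellular proteins, integrins and syndecans mainly, gave no call in 22 tested of 24, with 11 higher, 11 lower and a median of 0. The smallest p were those of Itgb6, the partner of an integrin that releases latent TGF-beta in epithelia, at 0.25 (adjusted p = 0.395 in limma), and Itga9, a subunit that binds tenascin C, at 0.44 (adjusted p = 0.439).

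The TGF-beta receptors and co-receptors were tested in full, 5 of 5, with no call, 4 lower and 1 higher, and a median of -0.14. Eng, endoglin, the endothelial co-receptor, was at -0.47 (adjusted p = 0.204 in limma). Tgfbr2, the type II receptor that binds the ligand, had 8.86, 9.33, 11.13 and 11.10 on low salt, against 11.28, 11.11, 11.33 and 11.24 on normal salt. Mice 1 and 2 of low salt stood apart here, whereas for Postn mouse 3 was also below every normal salt mouse. The difference of Tgfbr2 was -1.14 (adjusted p = 0.463 in limma).

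Among genes that hold or release latent TGF-beta, 13 of 15 were tested with no call and a median of -0.09. Ltbp1, which tethers the latent ligand to the matrix, was at -0.32 (adjusted p = 0.432 in limma), with every low salt mouse below every normal salt mouse. Lrrc32, which holds it at the cell surface, was at -0.36 (adjusted p = 0.532).

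Smads and their inhibitors gave no call in 12 tested of 13, with a median of 0.03. Smurf2, a ubiquitin ligase that degrades Smads and receptors, had 9.41, 9.66, 9.64 and 9.62 on low salt, against 8.94, 9.15, 8.45 and 8.58 on normal salt. The diets did not overlap, and the difference was 0.80 (adjusted p = 0.0959 in limma), or 0.60 with a local difference of 0.20 subtracted. Pmepa1, a target of TGF-beta that in turn limits Smad signalling, was at 0.41 (adjusted p = 0.266).

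Of 20 target genes of TGF-beta 19 were tested, 12 were higher and 7 lower, and 1 rose and none fell (0.829% of all genes rose). Their median was 0.14. The gene that rose was Scx, scleraxis, a transcription factor of tendon and of matrix-producing cells, with 11.40, 11.28, 10.87 and 11 on low salt, against 10.27, 10.14, 10.01 and 10.10 on normal salt. The diets did not overlap, and the difference was 1.01 (adjusted p = 0.0277 in limma).

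Other ligands and antagonists of the superfamily gave no call in 13 tested of 20, with 11 higher and 2 lower and a median of 0.10. These counts depend on place on the array. With the local difference subtracted, Inhbb went from 0.23 to -0.01, Bmp2 from 0.18 to -0.07, Bmp4 from 0.01 to -0.11 and Gdf1 from 0.04 to -0.02. No gene of the list changed sign the other way. Gdf15, a stress-induced ligand, was at 1.15 (adjusted p = 0.31 in limma), and Bmp7, a ligand that opposes TGF-beta in several tissues, was at 0.46 (adjusted p = 0.375).

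YAP and TAZ and their target genes, to which Ccn1 and Ccn2 also belong, gave no call in 11 tested of 14, with a median of 0.07. Ptpn14, which binds YAP, was at 0.73 (adjusted p = 0.375 in limma). Tead1, a DNA-binding partner of YAP, was at 0.35 (adjusted p = 0.392), of which 0.25 was the local difference around its probe.

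**Figure D4:**
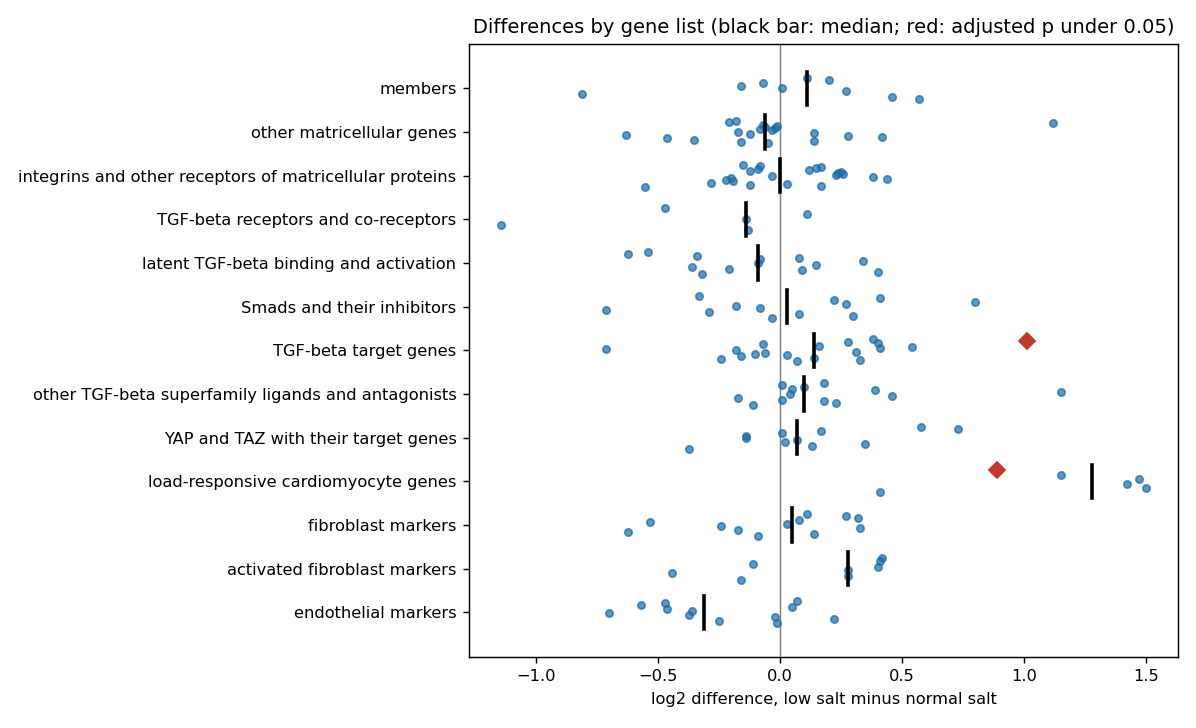
Log2 difference, low salt minus normal salt (horizontal axis), of each gene tested in each list (rows), with the median as a black bar; red diamonds are genes with an adjusted p under 0.05 over all genes, and a gene may stand in more than one list. Scx and Rcan1 are the genes called, and the load-responsive list stands furthest right (median 1.28). The lists were chosen with earlier results of these data known.

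Cardiomyocyte genes that respond to load are given beside Ccn2 and Ccn1, and their part in the result was not tested. This list, like the others, was chosen with earlier results of these data known, so its place is no independent finding. Of 7 on the list 6 were tested, and the difference was above 0 in all 6, against 9556 of all 18093 genes. Of the 6, 1 rose (0.829% of all genes rose), and the median was 1.28 against 0.01 over all genes. The gene that rose was Rcan1, an inhibitor and target of calcineurin, at 0.89 (adjusted p = 0.0336 in limma), or 0.72 with a local difference of 0.17 subtracted. Nppb, which encodes the B-type natriuretic peptide, had 15.39, 14.73, 15.17 and 14.80 on low salt, against 13.55, 13.14, 13.53 and 13.90 on normal salt, without overlap (a difference of 1.5, adjusted p = 0.0567). Ankrd1, a stretch-responsive cardiomyocyte gene, was not tested because its spot carried an outlier flag in normal salt mouse 3. Its other values were 15.98, 16.10, 16.35 and 16.57 on low salt, against 15.06, 15.63 and 15.04 on normal salt. The mean level of the list was 12.98 to 13.46 on low salt and 11.88 to 12.32 on normal salt.

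The fibroblast markers, the cells known to make most of the proteins above, were tested in full, 12 of 12, with no call, 7 higher and 5 lower, and a median of 0.05. Their mean level was 10.86 to 11.58 on low salt and 11.18 to 11.39 on normal salt. The smallest p were those of Gsn, at -0.53 (adjusted p = 0.525 in limma), and Dcn, decorin, at -0.62 (adjusted p = 0.54). Markers of activated fibroblasts gave no call in 8 tested of 10, with a median of 0.28, and Cthrc1 and Lox did not pass the filter. Fap was at -0.44 and Thbs4 at 0.42.

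Markers of other cells also gave no call, apart from Scx in the valve and tendon list (4 tested of 8, median 0.34, with Tnmd, Sox9, Prg4 and Hapln1 not tested). Endothelial markers (12 of 12) had a median of -0.31 and a mean level of 11.05 to 11.30 on low salt, against 11.24 to 11.71 on normal salt, with Eng as above and Esam at -0.57. Macrophage markers (9 of 10) had a median of 0.24 and a mean level of 10.05 to 10.33 on low salt, against 9.82 to 10.04 on normal salt, with Cx3cr1 at 0.90 and C1qa at 0.26. The macrophage means of the diets did not overlap, with 10.05 and 10.04 the nearest. Nor did those of valve and tendon markers (8.68 to 8.97 on low salt, 8.37 to 8.50 on normal salt). That mean includes Scx at 1.01, beside Thbs4 at 0.42, Fmod at 0.26 and Chad at -0.03, so it is not separate from the Scx result. Nerve and Schwann cell markers did not overlap either (8.03 to 8.17 against 8.24 to 8.34). The same held for the list of YAP and TAZ (9.73 to 9.83 on low salt, 9.58 to 9.69 on normal salt). It held for other superfamily ligands (8.01 to 8.24 against 7.83 to 7.99) and for load-responsive genes. How often the means of gene lists separate in these data was not computed, and no local difference was subtracted from these means. The part of any of these lists in the results above was not tested. Smooth muscle and pericyte markers (10 of 10) had a median of -0.08, with Pdgfrb at -0.46 and Des at 0.25. Platelet markers, from cells rich in TGF-beta and thrombospondin, had a median of 0.10 in 5 tested of 6, with Pf4 at 0.21 and Itga2b at 0.10. Ventricular markers had a median of -0.05, with Tnni3 at -0.26 and Irx4 at 0.31. Epicardial markers were near background, with Wt1 alone tested of 6, at -0.31. Nerve and Schwann cell markers (5 of 6) had a median of -0.37, with S100b at -0.37.

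Atrial markers differed between mice of the same diet. With 7 of 8 tested, their median was -0.74 and their mean level was 9.89 to 11.33 on low salt, against 10.21 to 12.24 on normal salt, with Nr2f2 at -0.35 and Myl4 at -1.97. The mean was highest in normal salt mice 3 and 4, at 12.24 and 12.09. Without the array of those mice the difference was 0.66 for Ccn2, 0.58 for Ccn1 and -0.85 for Postn. Without the other normal salt array it was 0.47 for Ccn2, 0.34 for Ccn1 and -0.78 for Postn. The part of atrial RNA in these differences was not tested.

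The patterns most like that of each gene over the 8 mice, centred within dye, are given as a description, since mice share arrays and dye. Any difference between diets enters each r. Olfr926 (r = 0.995) and Arntl (0.983) were nearest to Ccn2, and Etaa1 (0.998) and Slc41a3 (0.991) to Ccn1. Sulf1 (0.994) and Pmp22 (0.994) were nearest to Postn, Sult4a1 (0.984) and Speer8-ps1 (0.982) to Thbs1, and Nradd (0.993) and Ifi27 (0.980) to Sparc. Fn1 lay nearest to Ptgis (0.986) and Ecm1 (0.983). The ligands were nearest to Enkur (0.944) and Bmp6 (0.942) for Tgfb1, Cenpo (0.987) and Twist2 (0.978) for Tgfb2, and Dock11 (0.990) and Adgre1 (0.961) for Tgfb3. Among the 9 genes themselves, Thbs1 correlated with Ccn2 at 0.81 and with Tgfb3 at 0.77, Sparc with Fn1 at 0.71, and Postn with Ccn2 at -0.65.

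**Figure D5:**
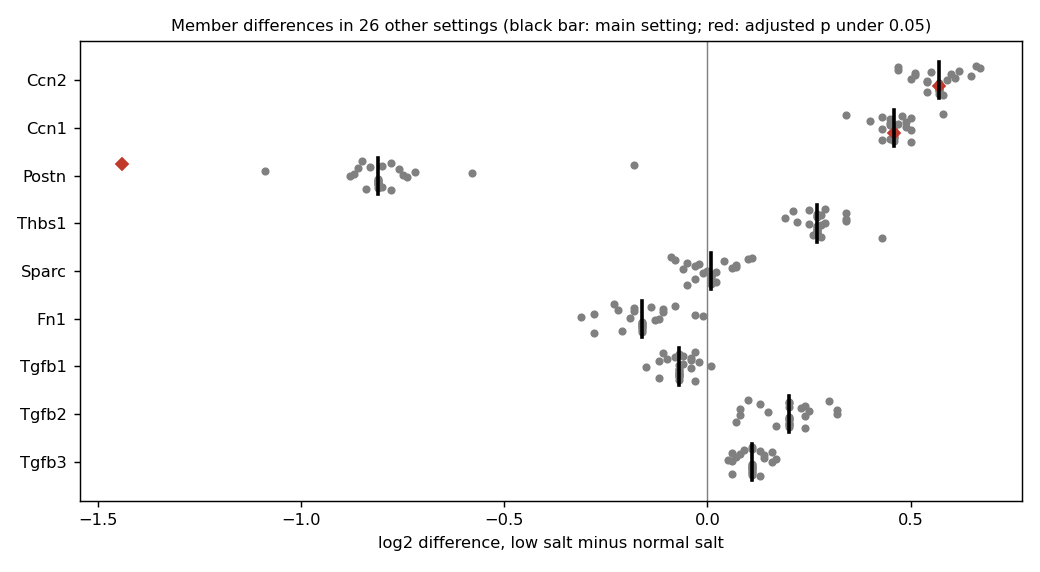
Log2 difference, low salt minus normal salt (horizontal axis), of the 9 genes tested under 26 other settings (points), with the reported value as a black bar and red diamonds where the adjusted p was under 0.05. Ccn2 stays between 0.47 and 0.67 and Ccn1 between 0.34 and 0.58, while Postn runs between -1.44 and -0.18.

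The order of the differences was Ccn2, Ccn1, Thbs1, Tgfb2, Tgfb3, Sparc, Tgfb1, Fn1 and Postn, from highest to lowest. The 95% intervals of neighbours in this order overlapped. Under the 26 other settings, Ccn2 kept its sign in 26 with an unadjusted p under 0.05 in 26, and Ccn1 in 26 with such a p in 25. Sparc changed sign in 10 of the 26.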

How the data were processed

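The intensity of each spot and its local background were read per channel by Agilent Feature Extraction 11.5.1.1, per the file headers. Both mice of an array have the same table, and each was read in the channel of its labelled dye. A further deposited table gives a ratio per spot, with a median of 1 in each column. Its values recur in each mouse's scanner readings, but only 0.295% to 0.935% of them at the row of that number, so no gene was read from it.

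The mean signal was corrected for the median local background by normexp (offset 50), with the channel's median in place of a flagged background, then normalised by loess within and Aquantile between arrays to log2 values computed from the deposited intensities. This used limma 3.58.1, R 4.3.3 and statmod 1.5.0. Flagged spots were left out, spots of a probe averaged, probes kept if well above background in 4 or more samples, and the brightest probe of a gene read. The model held diet and dye, with array as a random block (duplicateCorrelation) and empirical Bayes moderation. It was run on simulated data with the same array correlation for every gene, as the model assumes. That run cannot show how the model does where the correlation differs by gene. Names followed the accession for 27508 probes, a symbol for 3544, a synonym for 404 and the file for 7973.

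Members and lists were chosen with earlier results of these data known. From each list, genes past the threshold were named, or the 2 with the smallest p, plus Nppb; some results this rule names are not reported here. Mice with the same number deviated together (correlations of 0.30, 0.14, 0.17 and 0.19), which comes from the data alone, as the labels pair nothing and same numbers share a dye. The mice of an array shared a diet, so diet was compared between arrays, and the number of arrays limits precision. The p-values of the main model rest on the spread between these mice and between their arrays. The correlation within an array was taken as 0.554 for every gene, so the mice of an array were not counted as independent.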

Additional observations from a re-analysis of the deposited data

Results flagged for a closer look

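In 2 of 18 groups of 4 values a single mouse stood far from the others, its gap to the nearest mouse taking most of the range, where chance gives about 1 group in 20. Ccn2 on low salt had its lowest value in mouse 3, at 12.60, with a gap of 0.853 of the range. Fn1 on normal salt had its highest value in mouse 1, at 10.57, with a gap of 0.839 of the range. Without low salt mouse 3 the difference of Ccn2 was 0.65.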

How the results depend on the processing

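The whole table, with the 9 genes tested, was refitted in limma under 26 other settings. Ccn2 (0.47 to 0.67), Ccn1 (0.34 to 0.58), Thbs1 (0.19 to 0.43), Tgfb2 (0.07 to 0.32), Tgfb3 (0.05 to 0.17), Fn1 (-0.31 to -0.01) and Postn (-1.44 to -0.18) kept their sign in all of them. The difference of Tgfb1 was 0.01 in the Cy5 mice alone. Sparc, at 0.01, was -0.05 from the scanner's processed signal, -0.03 as the mean of its probes, -0.01 with the local trend subtracted, 0.00 in the Cy5 mice alone, -0.08 with the first low salt array (mice 1 and 2) left out, -0.09 with the second normal salt array (mice 3 and 4) left out, and between -0.06 and 0.07 with 1 mouse left out. Of the 9 genes tested, 2 were called with no array block (Ccn2 and Ccn1) and 1 with the second low salt array left out (Postn), and 0 under each other setting.

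Against 150 genes higher and 7 lower, the counts were 30 higher from the processed signal, 2 lower with probes well above background in all 8 samples, 489 and 141 with no array block, 67 and 11 with the local trend subtracted, 71 and 11 with the first low salt array left out, and 451 and 655 with the second left out. With the first normal salt array left out there were 53 lower, and with the second left out there were 55. With 1 mouse left out there were 53 to 103 higher and 1 to 25 lower. No gene was called in limma without Aquantile, with 1 mean per array, or in either dye alone, so 0 higher and 0 lower, with 775, 1571, 1864 (Cy3) and 1256 (Cy5) genes at an unadjusted p under 0.05. The cause of these shifts was not tested. With the mouse number as a replicate block there were 20 lower. The adjusted p was then 0.088 for Ccn2, 0.119 for Ccn1 and 0.261 for Postn, and the block changed no call among the 9 genes.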
